A study of Mus musculus with 12 samples.

Results

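The kidney's transporters of urate and organic anions were examined as 10 genes of the 22053 rows of the deposited expression table: Slc22a6, Slc22a7, Slc22a8, Slc22a12, Slco1a1, Slc2a9, Abcg2, Abcc4, Slc17a1 and Slc17a3. Each was found by its gene symbol, with 1 row per symbol. The rule names genes and uses no measured value, but the genes were picked with earlier results of these data known. RNA sequencing was done on whole kidneys of 12 C57BL/6 wild-type mice in 3 groups of 4. The CKD mice ate a diet with 0.2% adenine from 8 to 16 weeks of age and were given PBS i.p. each week. The CKD+Fe mice ate the same adenine diet and were given iron dextran i.p. at 0.5 g/kg each week. Control mice ate the diet without adenine and were given PBS i.p. each week. The comparison of CKD with control mice asks what adenine-induced chronic kidney disease (CKD) did to these transcripts, and that of CKD+Fe with CKD mice asks whether iron therapy altered them. Mice are named by the number in their label. The unit is FPKM, in which read fragments are divided by transcript length and by the mapped reads of the library, so levels of different genes can be set side by side.

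Proximal tubule cells take organic anions from the blood across the basolateral membrane and release them into the urine across the brush border, the route by which many drugs and uremic toxins leave the body. Urate uses the same machinery in both directions, and the balance of brush border reabsorption and secretion sets how much is excreted. Basolateral uptake by the SLC22 exchangers is paid for with dicarboxylates, which sodium-coupled carriers return to the cell, and scaffold proteins with PDZ domains hold several of these transporters at the brush border.

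In the CKD kidneys 7 of the 10 transporters fell, Abcc4 rose and Slc2a9 did not pass the test. Over all genes tested 13.3% were lower and 54.6% higher in CKD than in control mice. Slco1a1 was also far lower in every CKD mouse and is given without a test. The difference was deepest for Slco1a1 and Slc22a7 and smallest for Abcg2. In the CKD+Fe mice none of the 9 genes other than Slco1a1 passed the test against CKD mice. Over all genes 0.00761% passed upward and 0% downward. Slc22a8 and Slc22a12 were higher in every CKD+Fe mouse than in every CKD mouse, which 1.35% of all genes showed.

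The order of the levels changed with the disease. Among the 4 control mice Slc22a12 was the most abundant (mean 807 FPKM), and its range was separate from that of Slc17a1 (406 FPKM). The ranges of Slc17a1, Slc17a3, Slc22a6, Slc22a7, Abcg2, Slc22a8 and Slco1a1 each overlapped the next in this order, and Abcc4 (5.50 FPKM) and Slc2a9 (4.18 FPKM) stood apart at the bottom. In CKD mice Slc17a1 (113 FPKM), Abcg2 (90.0 FPKM) and Slc22a12 (75.5 FPKM) led with overlapping ranges, and Slc22a7 and Slco1a1 came last. The summed FPKM of the 10 genes ran from 2206 to 2886 in control mice, from 289 to 504 in CKD mice and from 401 to 922 in CKD+Fe mice.

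Slc22a6 and Slc22a8 are neighbors on mouse chromosome 19 (positions are those of build GRCm38). Slc22a8 (ENSMUSG00000063796) spans 8591254 to 8611834 and Slc22a6 (ENSMUSG00000024650) spans 8617996 to 8628299, both on the plus strand with 6203 bp between them. Slc22a12 (ENSMUSG00000061742) lies on the same chromosome from 6535845 to 6543019 on the minus strand. Promoter windows from RefSeq (GRCm38.p6, 250 bases before to 50 after a start) were found for 9 of the 10 members, 13 windows in all, and Slc22a7 had none. Windows are shown for the 2 neighboring uptake exchangers, for the most abundant member of the control kidney and for the 1 member that rose. Capitals mark exact matches on either strand to CAAAGTCCA (a core of the HNF4 site), TGACNNNGC (the antioxidant response element) or GCGTG (the core of the xenobiotic response element). No match overlapped another.
Slc22a6, plus strand, chr19:8617746-8618045: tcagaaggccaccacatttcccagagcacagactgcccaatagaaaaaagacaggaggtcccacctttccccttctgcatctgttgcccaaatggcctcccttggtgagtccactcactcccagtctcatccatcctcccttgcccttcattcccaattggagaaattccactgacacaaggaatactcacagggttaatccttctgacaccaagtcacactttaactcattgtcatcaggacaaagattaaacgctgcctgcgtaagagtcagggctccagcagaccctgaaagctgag
Slc22a8, plus strand, chr19:8592932-8593231: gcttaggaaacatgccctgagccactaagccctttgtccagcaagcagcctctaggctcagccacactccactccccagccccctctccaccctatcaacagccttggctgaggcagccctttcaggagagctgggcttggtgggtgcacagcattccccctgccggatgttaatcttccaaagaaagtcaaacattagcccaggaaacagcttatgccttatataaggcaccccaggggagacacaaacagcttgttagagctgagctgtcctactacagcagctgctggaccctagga
Slc22a12, minus strand, chr19:6543021-6543320: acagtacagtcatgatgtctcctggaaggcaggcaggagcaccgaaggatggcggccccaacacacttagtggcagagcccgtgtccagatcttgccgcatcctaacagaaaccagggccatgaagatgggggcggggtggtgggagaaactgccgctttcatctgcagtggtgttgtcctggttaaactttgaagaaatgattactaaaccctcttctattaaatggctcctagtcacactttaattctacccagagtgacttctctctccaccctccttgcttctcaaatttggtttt
Abcc4, minus strand, chr14:118706170-118706469: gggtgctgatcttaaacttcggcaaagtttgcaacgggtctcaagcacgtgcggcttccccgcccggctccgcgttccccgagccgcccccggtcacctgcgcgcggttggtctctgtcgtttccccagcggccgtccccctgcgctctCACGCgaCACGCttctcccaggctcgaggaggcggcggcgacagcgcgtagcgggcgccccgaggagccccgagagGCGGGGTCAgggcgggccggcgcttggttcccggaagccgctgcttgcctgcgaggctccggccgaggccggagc
The Slc22a6, Slc22a8 and Slc22a12 windows held none of these letters. CAAAGTCCA was in no member's window, and windows of 0.555% of the 27025 genes in this reference hold it. Counted from the annotated start, the Abcc4 window held TGACNNNGC as its reverse complement at -25 to -17 and GCGTG as its reverse complement at -101 to -97 and -94 to -90, and these letters are in windows of 14% and 35.2% of genes. TGACNNNGC was also in the second Abcc4 window, and GCGTG in 1 of the Abcg2 windows. Such matches describe the letters only, and binding was not measured.

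Slc22a6 (OAT1), a basolateral exchanger that takes up urate and many drugs and toxins, measured 281, 335, 230 and 339 FPKM in control mice. It measured 51.9, 22.3, 47.0 and 31.0 FPKM in CKD mice and 27.9, 105, 76.0 and 53.1 FPKM in CKD+Fe mice. All CKD and CKD+Fe mice were below all control mice. The mean was 7.79-fold lower in CKD than in control mice, and the log2 fold change of FPKM + 1 was -2.99 (SE 0.35, limma adjusted p = 8.62e-06, adjusted over 13148 genes by Benjamini-Hochberg). Between CKD+Fe and CKD mice the log2 difference was 0.69 (SE 0.35, limma adjusted p = 0.859), and the groups overlapped.

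Slc22a8 (OAT3), its basolateral neighbor with a similar range of substrates, measured 153, 212, 180 and 167 FPKM in control mice. CKD mice had 43.0, 24.0, 45.7 and 41.0 FPKM and CKD+Fe mice had 46.8, 124, 103 and 85.9 FPKM. The 3 groups did not overlap, although the highest CKD mouse and the lowest CKD+Fe mouse were nearly level. From control to CKD mice Slc22a8 fell by 2.21 in log2 units (SE 0.27, limma adjusted p = 1.19e-05). It was 2.34-fold higher on average in CKD+Fe than in CKD mice, a log2 difference of 1.16 (SE 0.27, limma unadjusted p = 0.000717, adjusted p = 0.277; exact permutation p = 0.0286, the smallest that 70 arrangements of 4 against 4 allow). Without 042702, the lowest CKD+Fe mouse for Slc22a8, this difference was 1.44 and passed (limma adjusted p = 0.028). With each single mouse left out in turn, the limma adjusted p ran from 0.028 to 0.999.

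Slc22a7 (OAT2, ENSMUSG00000067144, chromosome 17, 46432185 to 46438477, minus strand), a further organic anion transporter of the family, was among the deepest falls. It measured 254, 188, 317 and 186 FPKM in control mice, against 3.31, 0.988, 14.8 and 0.661 FPKM in CKD mice and 0.315, 12.9, 0.974 and 1.10 FPKM in CKD+Fe mice. In each adenine-fed group 1 mouse, 110310 in CKD and 062910 in CKD+Fe, stood well above the others, yet every adenine-fed mouse was far below every control mouse. The mean was 47.9-fold lower in CKD than in control mice (log2 -5.90, SE 0.72, limma adjusted p = 1.29e-05). The log2 difference of CKD+Fe from CKD mice was -0.39 (SE 0.72, limma adjusted p = 0.993), with a 95% interval from -1.94 to 1.16, and without CKD mouse 110310 it turned to 0.28 (adjusted p = 0.878).

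Slco1a1 (OATP1A1, ENSMUSG00000041698, chromosome 6, 141907282 to 141946962, minus strand), an uptake carrier for organic anions and steroid conjugates, was nearly lost. It measured 94.4, 108, 73.2 and 177 FPKM in control mice and 0.196, 0.239, 0.496 and 0.127 FPKM in CKD mice. Of the CKD+Fe mice 042702 was listed at 0, and the others had 0.298, 0.0173 and 0.0275 FPKM. Slco1a1 reached 1 FPKM in the 4 control mice alone, so it entered the test only through the group where it was high. It is therefore given as a description, with no test. The control mean was 429-fold that of CKD mice. By the steps between low values, 1 read on a 1-kb transcript was worth 0.0378 to 0.0546 FPKM in these libraries, so the CKD+Fe values of under 0.03 FPKM are near the worth of single reads. Of its 50-base windows 1.64% are shared with other Slco1a genes.

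**Figure D1:**
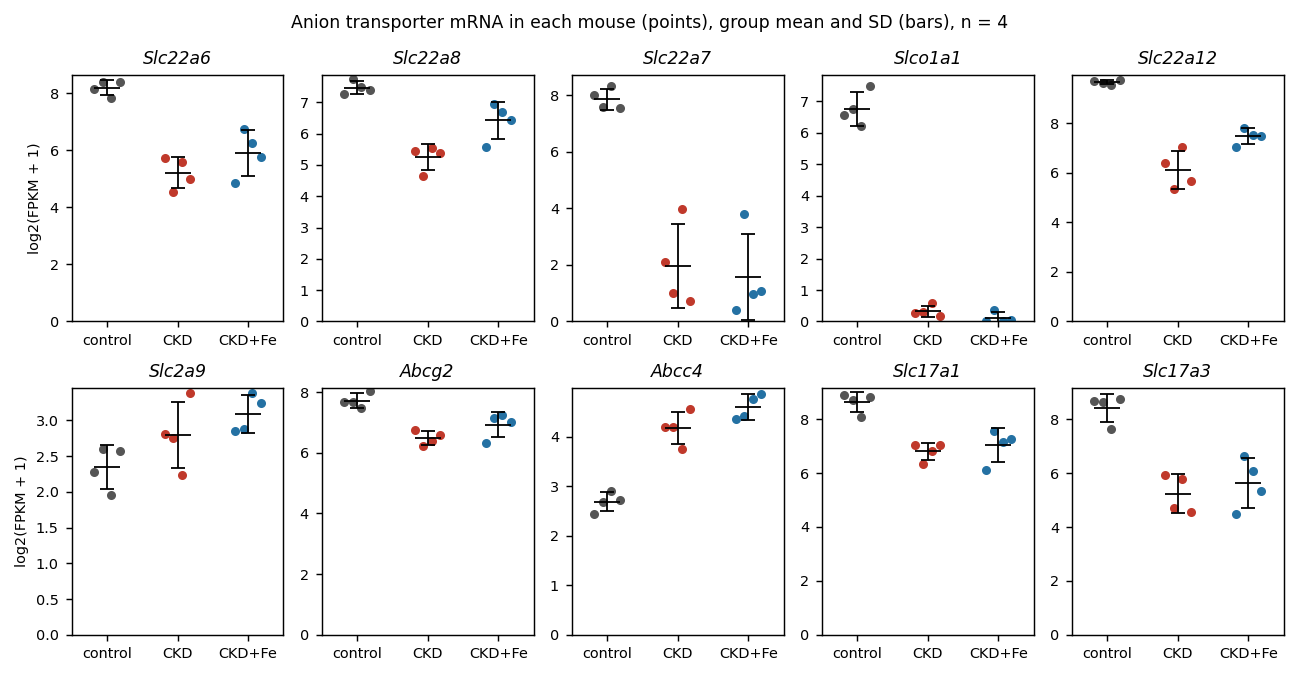
Expression of the 10 transporters as log2(FPKM + 1) on the vertical axis, 1 point per mouse, in control, CKD and CKD+Fe mice, with the mean and SD of 4 mice. Each panel has its own scale from 0. In CKD mice 8 genes are separate below control mice, Abcc4 is separate in the other direction, and Slc2a9 overlaps.

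The urate reabsorption genes moved apart. Slc22a12 (URAT1), the brush border exchanger that recovers filtered urate, measured 824, 795, 753 and 857 FPKM in control mice. It measured 83.0, 39.4, 130 and 49.2 FPKM in CKD mice and 131, 226, 184 and 176 FPKM in CKD+Fe mice. Control mice were all above the rest, and the lowest CKD+Fe mouse was just above the highest CKD mouse. Slc22a12 was 10.7-fold lower on average in CKD than in control mice (log2 -3.55, SE 0.29, limma adjusted p = 5.61e-07). In CKD+Fe mice it was 2.38-fold higher than in CKD mice (log2 1.36, SE 0.29, limma unadjusted p = 0.000399, adjusted p = 0.254, exact permutation p = 0.0286). Slc22a12 overlaps Nrxn2, a gene on the opposite strand, and shares 27.4% of its 50-base windows with it, but Nrxn2 ran only from 1.55 to 3.38 FPKM over all mice.

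Slc2a9 (GLUT9, ENSMUSG00000005107, chromosome 5, 38349273 to 38503143, minus strand), a urate carrier, measured 3.84, 5.08, 2.87 and 4.92 FPKM in control mice. CKD mice had 6.02, 5.73, 3.72 and 9.45 FPKM and CKD+Fe mice 6.22, 6.38, 9.45 and 8.50 FPKM. CKD mice overlapped control mice through mouse 110310, while all CKD+Fe mice were above all control mice. In CKD against control mice the log2 difference was 0.45 (SE 0.23, limma adjusted p = 0.099, 95% interval -0.05 to 0.94). Without mouse 110310, the lowest CKD mouse for Slc2a9, it was 0.63 and passed (limma adjusted p = 0.0172). With each single mouse left out in turn, the limma adjusted p ran from 0.0172 to 0.317. Slc2a9 was the member whose direction rested on the scaling, since the difference was -0.03 after median-of-ratios rescaling and -0.32 after quantile normalization. In CKD+Fe against control mice it was 0.74 (SE 0.23, limma adjusted p = 0.0118), but 0.27 after rescaling (adjusted p = 0.341) and -0.0048 after quantile normalization.

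The ABC pumps of the secretion group, both driven by ATP at the brush border, went opposite ways. Abcg2 (BCRP, ENSMUSG00000029802, chromosome 6, 58584523 to 58695676, plus strand), a urate exporter, measured 202, 205, 176 and 265 FPKM in control mice, 108, 74.3, 83.4 and 94.3 FPKM in CKD mice and 78.6, 142, 149 and 130 FPKM in CKD+Fe mice. It was 2.35-fold lower on average in CKD than in control mice without overlap (log2 -1.22, SE 0.20, limma adjusted p = 0.000145), the smallest of the falls. CKD+Fe and CKD mice overlapped, with a log2 difference of 0.44 (SE 0.20, limma unadjusted p = 0.0475, adjusted p = 0.828).

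Abcc4 (MRP4, ENSMUSG00000032849, chromosome 14, 118482692 to 118706219, minus strand), which exports urate, cyclic nucleotides and conjugated anions, measured 4.42, 5.43, 6.51 and 5.64 FPKM in control mice. CKD mice had 17.5, 17.4, 12.6 and 22.5 FPKM and CKD+Fe mice had 19.5, 20.5, 26.4 and 28.3 FPKM. Every adenine-fed mouse was above every control mouse. Abcc4 was 3.18-fold higher on average in CKD than in control mice (log2 1.49, SE 0.18, limma adjusted p = 1.18e-05), and it was higher under rescaling and quantile normalization as well. Against CKD mice the CKD+Fe mice differed by 0.42 on the log2 scale (SE 0.18, limma unadjusted p = 0.0338, adjusted p = 0.786) and overlapped them.

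Slc17a1 and Slc17a3 encode NPT1 and NPT4, carriers that let organic anions and urate out into the urine, and are neighbors on chromosome 13. Slc17a3 (ENSMUSG00000036083) spans 23839434 to 23860714 and Slc17a1 (ENSMUSG00000021335) spans 23867750 to 23895730, both on the plus strand. Slc17a1 measured 480, 419, 269 and 456 FPKM in control mice, 130, 80.1, 111 and 130 FPKM in CKD mice and 68.6, 186, 143 and 154 FPKM in CKD+Fe mice. Slc17a3 measured 408, 395, 199 and 428 FPKM in control mice, 60.6, 24.9, 53.4 and 22.5 FPKM in CKD mice and 21.6, 99.5, 67.2 and 39.3 FPKM in CKD+Fe mice. For both genes mouse 042301 had the lowest control value, and it was still above every adenine-fed mouse. The mean of Slc17a1 was 3.60-fold lower in CKD than in control mice (log2 -1.83, SE 0.28, limma adjusted p = 8.72e-05). That of Slc17a3 was 8.85-fold lower (log2 -3.18, SE 0.44, limma adjusted p = 3.32e-05). Neither differed between CKD+Fe and CKD mice past the threshold, with log2 differences of 0.22 (SE 0.28, limma adjusted p = 0.982) and 0.40 (SE 0.44, limma adjusted p = 0.979).

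**Figure D2:**
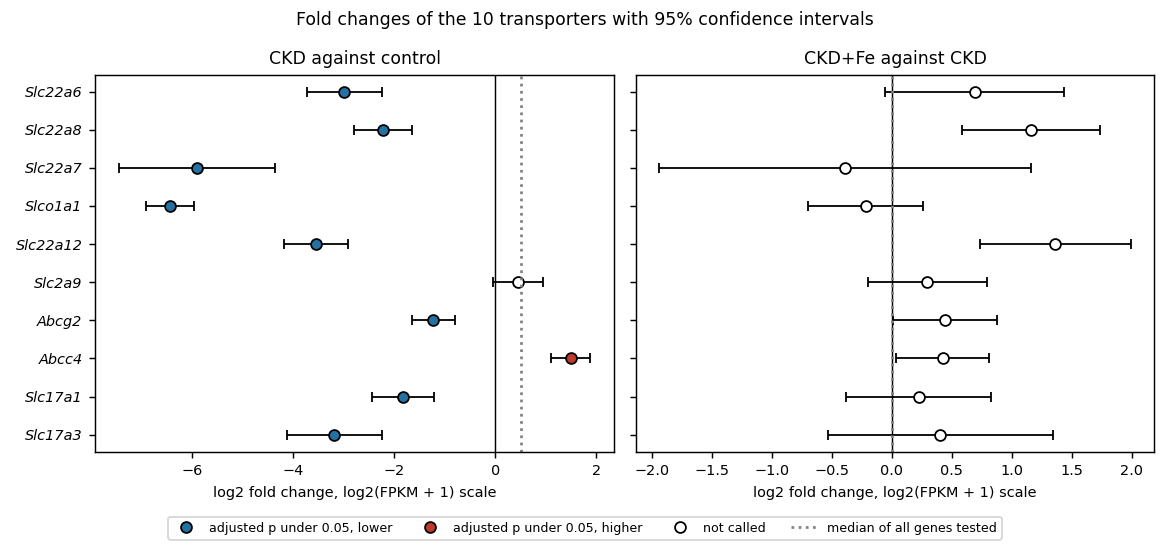
Log2 fold changes of FPKM + 1 on the horizontal axes for the 10 transporters, with 95% confidence intervals from limma, in CKD against control mice and in CKD+Fe against CKD mice; the axes of the panels differ in scale. Filled points pass an adjusted p of 0.05 (for Slco1a1, which entered only through its control values, this is no test), and the dotted line is the median of all genes tested (0.50 on the left). On the right no point is filled, and Slc22a8 and Slc22a12 lie farthest from 0.

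Of the 9 genes other than Slco1a1, which entered only through its control values, 7 were lower and 1 higher in CKD than in control mice (limma adjusted p under 0.05), where 13.3% of all 13148 genes tested were lower and 54.6% higher. The same 7 and 1 did not overlap between the groups, against 10.5% and 44.6% of all genes. The median log2 fold change was -2.21 over the 9 genes and 0.50 over all genes. After median-of-ratios rescaling the median of all genes moved to 0.01, with 29.3% of genes lower and 28.8% higher, and after quantile normalization the shares were 25.6% and 23.3%.

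In CKD+Fe against CKD mice 0 of the 9 members other than Slco1a1 passed limma's adjusted threshold. Over all genes 0% passed downward and 0.00761% upward. At an unadjusted p under 0.05 there were 4 members, Slc22a8, Slc22a12, Abcg2 and Abcc4, all higher, against 3.28% of all genes higher and 2.73% lower. Slc22a8 and Slc22a12 were the 2 members without overlap, which 1.35% of all genes showed upward and 1.09% downward. Their exact permutation p of 0.0286 follows from that lack of overlap. The exact permutation p was 0.0857 for Abcc4, 0.114 for Abcg2 and 0.2 for Slc22a6. For Slc2a9, Slc17a1, Slc17a3 and Slc22a7 it ran from 0.286 to 0.657. Array quality weights give less weight to mice that vary more. With them Slc22a8 passed at 1.31 (limma adjusted p = 0.0206) and Slc22a12 at 1.59 (limma adjusted p = 0.00797). Under these weights 160 genes passed in all. Slc22a8 and Slc22a12 also passed, each at a limma adjusted p of 0.029, when the mouse farthest from its group was left out of each group, a setting chosen after seeing the data. For both genes it removed the highest CKD mouse, 110310, and the lowest CKD+Fe mouse, 042702. Leaving these out widens the difference by itself, so this pass adds no support. Less weight on these 2 mice would widen it in the same way, so the pass with weights is no separate support. The weights of single mice were not examined.

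CKD+Fe and CKD mice were each set against the same control mice. In CKD+Fe mice 7 of the 9 members other than Slco1a1 were lower and 2 higher, beside 11% and 54.4% of all genes, and these 9 did not overlap control mice, beside 9.85% and 50.4%. Against the shared controls the log2 differences, CKD first and CKD+Fe second, were -2.99 and -2.30 for Slc22a6, -2.21 and -1.05 for Slc22a8, -5.90 and -6.29 for Slc22a7, and -3.55 and -2.19 for Slc22a12. They were -1.22 and -0.78 for Abcg2, 1.49 and 1.92 for Abcc4, -1.83 and -1.61 for Slc17a1, and -3.18 and -2.78 for Slc17a3. Slc22a8 thus lay 4.64-fold below control in CKD and 1.98-fold below in CKD+Fe mice by the means. The call for Abcg2 in CKD+Fe mice did not pass after quantile normalization (log2 -0.55, limma adjusted p = 0.08). For Slc2a9 the log2 differences in CKD and CKD+Fe mice were 0.45 and 0.74. Its call as higher in CKD+Fe mice was lost after rescaling (0.27, limma adjusted p = 0.341). After quantile normalization the difference was -0.0048 (limma adjusted p = 0.988).

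Markers of the proximal tubule moved with the transporters. Of 18 such markers 16 were lower in CKD than in control mice and 2 did not pass, with a median log2 fold change of -1.82. Their summed level ran from 13451 to 16851 FPKM in control mice, from 2635 to 4811 FPKM in CKD mice and from 2833 to 6968 FPKM in CKD+Fe mice. In whole kidney, fewer proximal tubule cells and less RNA per cell cannot be told apart. Of the 8 tubule injury markers 8 were higher in CKD mice (summed level 12078 to 21578 FPKM against 619 to 885 FPKM), as were 10 of 10 macrophage markers (861 to 1858 against 99.4 to 177 FPKM) and 7 of 7 fibroblast and matrix markers (428 to 945 against 71.8 to 100.4 FPKM). The injury markers Krt20 and Sox9 and the macrophage marker Itgam were under 1 FPKM in every control mouse. They reached the filter only through adenine-fed mice, so their calls are no test. Among 11 markers of other nephron segments 3 were lower and 1 higher, and among 7 endothelial markers 1 was lower. Over all genes 13.3% were lower and 54.6% higher in CKD than in control mice. Below the median of all genes lay 8 of the 11 nephron and all 7 endothelial markers. In CKD+Fe against CKD mice 0 of these markers passed by limma. All 18 proximal tubule markers had positive log2 differences there (median 0.44, 3 at an unadjusted p under 0.05). The median over the 9 transporters other than Slco1a1 was 0.42. All 8 injury markers had negative log2 differences (median -0.60, 5 at an unadjusted p under 0.05), as did 6 of the 7 fibroblast and matrix markers (median -0.55). At that unadjusted p 3.28% of all genes were higher and 2.73% lower, and the median of all genes was -0.0005. The part of these cell types in the transporter results, those of Slc22a8 and Slc22a12 with iron included, was not tested.

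The transporters were also set against the proximal tubule markers of the same mouse. This relative level is the log2(FPKM + 1) of a gene minus the mean over the 18 markers, and it was compared without a test. The markers themselves varied, with log2 fold changes from -4.49 to -0.0029 in CKD against control mice. The falls of Slc22a6, Slc22a8, Slc22a12, Slc17a1, Slc17a3 and Abcg2 lay inside that range, so a difference from the marker mean does not set these 6 genes apart from single markers. Slc22a6 fell from -0.24 ± 0.05 (SD, n = 4) in control to -1.31 ± 0.25 in CKD mice, and Slc22a12 from 1.22 ± 0.19 to -0.42 ± 0.60. Slc17a3 went from -0.02 ± 0.29 to -1.28 ± 0.52. For these 3 genes, and for Slc22a7 (difference -3.98) and Slco1a1 (difference -4.51), every CKD mouse was below every control mouse in relative level. Slc22a8 (difference -0.30) and Slc17a1 (difference 0.09) overlapped control mice in relative level.

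The relative level was higher in every CKD than in every control mouse for Slc2a9 (difference 2.37), Abcg2 (0.69) and Abcc4 (3.41). Which cells of the whole kidney held this RNA was not measured. The marker mean itself fell from 8.44 in control to 6.52 in CKD mice, while the median of all genes rose by 0.50. A gene that moved with that median would thus also be higher in relative level. The share of all genes separated on this scale was not computed. In CKD+Fe against CKD mice the relative level of Slc22a8 alone among the members separated the groups (difference 0.70, -0.57 ± 0.07 against -1.26 ± 0.21, SD, n = 4), while Slc22a12 (difference 0.90) overlapped.

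**Figure D3:**
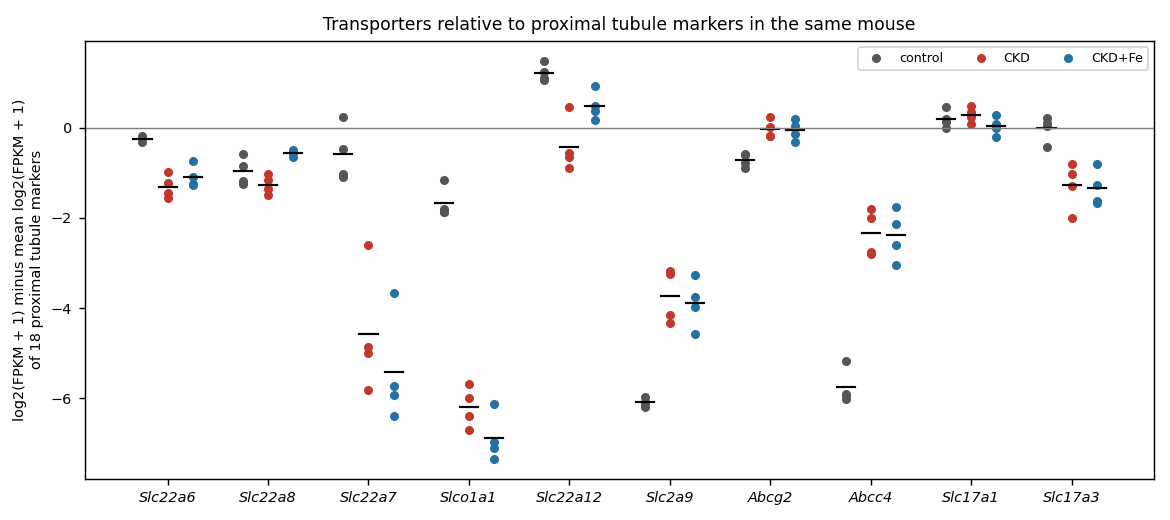
Log2(FPKM + 1) of each transporter minus the mean over 18 proximal tubule markers in the same mouse, on the vertical axis. Points are mice, lines are means of 4 mice, and the grey line at 0 is the marker mean. Slc17a1 stays near 0 in every group, Slc22a7 and Slco1a1 drop away from it, and Slc2a9 and Abcc4 climb toward it.

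Ratios between members of 1 mouse do not depend on the scaling between mice. The ratio of Slc22a6 to Slc22a8 ran from 1.28 to 2.03 in control mice, from 0.757 to 1.21 in CKD mice and from 0.597 to 0.850 in CKD+Fe mice. Slc22a6 was the more abundant of the pair in every control mouse and Slc22a8 in every CKD+Fe mouse, while CKD mice lay on both sides. Slc17a1 over Slc17a3 ran from 1.06 to 1.35 in control mice, 2.08 to 5.78 in CKD mice and 1.87 to 3.91 in CKD+Fe mice.

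The ratio of Slc22a12 to Slc2a9, the urate reabsorption genes, ran from 156 to 262 in control mice and 5.21 to 35.0 in CKD mice. In CKD+Fe mice it ran from 19.5 to 35.4. Whether both genes were expressed in the same cells cannot be told from whole kidney. The ratio of Abcg2 to Abcc4 ran from 27.0 to 47.0 in control mice and from 4.19 to 6.62 in CKD mice. The summed FPKM of the uptake genes Slc22a6 and Slc22a8 was 63.0 to 101 times the level of Abcc4 in control mice and 2.66 to 7.36 times in CKD mice. None of these 3 ratios in CKD mice overlapped the control mice. For the ratios with Abcc4 this follows from the separate ranges of the single genes, so it adds no further result. The share of other gene pairs whose ratios separate was not computed.

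**Figure D4:**
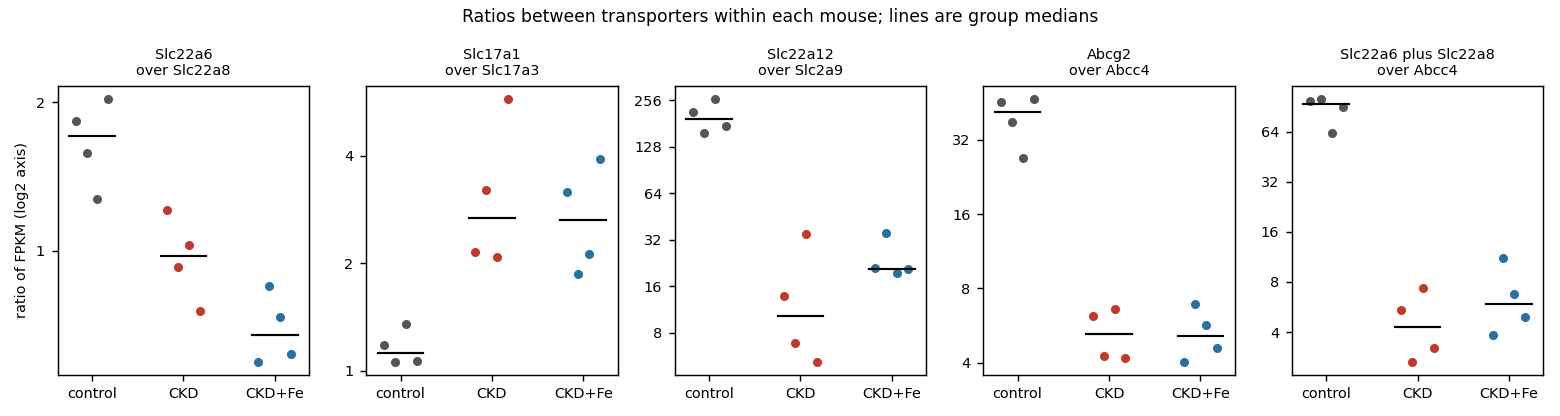
Ratios of FPKM between transporters within each mouse, on log2 axes that differ between panels, with 1 point per mouse and a line at the group median. In all 5 panels the adenine-fed mice are separate from control mice. For the ratios with Abcc4 this follows from the separate ranges of the single genes. CKD+Fe mice overlap CKD mice in every panel.

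Of 29 other genes of these transporter families, the SLC22, SLCO, ABCC, SLC17 and SLC16 relatives, 21 passed the filter. In CKD against control mice 12 of the 21 were lower and 7 higher, with a median of -0.76 beside the 0.50 of all genes. Over all genes 13.3% were lower and 54.6% higher. The counts include Slc22a26, lower, and Abcc3, higher. Each reached the filter only through mice where it was high, so their calls are no test. The 4 largest falls past the threshold on the log2(FPKM + 1) scale were mouse SLC22 organic anion transporter genes. Slc22a30 went from 68.2 ± 6.31 to 2.17 ± 2.03 FPKM (SD, n = 4, log2 -4.70), Slc22a28 from 67.0 ± 9.81 to 2.21 ± 2.14 FPKM (log2 -4.69), Slc22a19 from 92.8 ± 20.8 to 3.88 ± 2.76 FPKM (log2 -4.43) and Slc22a22 from 70.2 ± 13.5 to 4.41 ± 4.04 FPKM (log2 -3.97). Their limma adjusted p ran from 3.79e-06 for Slc22a30 to 1.11e-05 for Slc22a22. The order depends on the scale, since by mean FPKM Slc22a26, named after its values were seen, was 19.5-fold lower (14.2 to 0.730 FPKM) and Slc22a22 15.9-fold lower. How reads shared between close relatives in this family were assigned is not given in the sources used here.

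The 4 largest rises on the log2(FPKM + 1) scale were in export pumps and organic anion polypeptides. Abcc3 (MRP3), a basolateral exporter, went from 0.673 ± 0.222 to 13.9 ± 3.63 FPKM (SD, n = 4, log2 3.13). It was under 1 FPKM in every control mouse and reached the filter only through adenine-fed mice, so this is a description with no test. Slco4a1 rose by 1.68, Slco2a1, the prostaglandin transporter, by 1.65 and Abcc1 (MRP1), a basolateral exporter, by 1.49 on the log2 scale. By mean FPKM Slco2b1, also named after its values were seen, was 3.03-fold higher and Slco4a1 2.86-fold higher. The 4 falls and 4 rises chosen on the log2 scale kept their direction and passed the threshold after rescaling and after quantile normalization, which for Abcc3 is no test.

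Against CKD mice none of the 21 passed in CKD+Fe mice by limma. Slc22a26 is counted among them, although it reached the filter through its control values. An unadjusted p under 0.05 was reached by 5, beside 3.28% of all genes higher and 2.73% lower. These 5 are named here after their values were seen: Abcc2 (log2 1.05, adjusted p = 0.4), Abcc6 (0.61, adjusted p = 0.469), Slc22a22 (1.19, adjusted p = 0.777), Slc22a29 (0.80, adjusted p = 0.72) and Slco3a1 (-0.35, adjusted p = 0.72). Abcc2 (MRP2), a brush border exporter, had a mean of 47.0 ± 6.05 FPKM (SD, n = 4) among control mice, which compared with 26.9 ± 9.92 FPKM among CKD and 55.8 ± 17.6 FPKM among CKD+Fe mice. It passed with array quality weights, under which 160 genes passed in all.

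**Figure D5:**
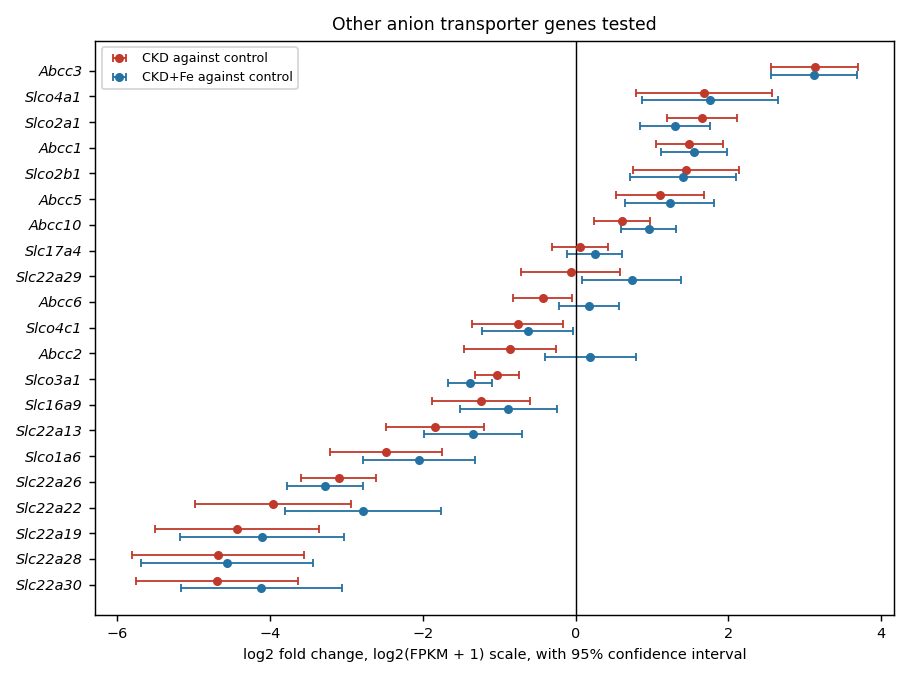
Log2 fold changes of FPKM + 1 with 95% confidence intervals on the horizontal axis for the 21 other anion transporter genes tested, in CKD and in CKD+Fe mice, both against the same 4 control mice. Genes run from Abcc3 (3.13 in CKD mice) at the top to Slc22a30 (-4.70) at the bottom, and the order follows the CKD mice.

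Of 8 partner genes, which supply the exchange anions, hold transporters at the brush border or belong to the sodium pump, 5 were lower in CKD than in control mice and none higher, beside 13.3% and 54.6% of all genes. Pdzk1, the brush border scaffold that binds URAT1 among other carriers, went from 567 ± 96.9 to 154 ± 37.6 FPKM (SD, n = 4, log2 -1.89, SE 0.20, limma adjusted p = 4.88e-06). Slc9a3r1 (NHERF1), a related scaffold, fell by 0.90 (limma adjusted p = 0.000236). Slc13a3, the basolateral dicarboxylate carrier that supplies the exchange partner for OAT1 and OAT3, went from 208 ± 42.0 to 60.9 ± 11.0 FPKM (log2 -1.75, SE 0.21, limma adjusted p = 1.1e-05).

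The brush border dicarboxylate carrier Slc13a2 fell by 0.78 (limma adjusted p = 0.00533) and the monocarboxylate carrier Slc5a8 by 1.68 (limma adjusted p = 0.000193) on the log2 scale. The 3 that did not pass were the monocarboxylate carrier Slc5a12 (log2 -0.07, limma adjusted p = 0.881), the scaffold Slc9a3r2 (-0.43, adjusted p = 0.264) and the sodium pump subunit Atp1b1 (-0.08, adjusted p = 0.735). Slc9a3r2 and Atp1b1 were called lower after rescaling, and Atp1b1 turned positive after quantile normalization (0.18). Against CKD mice 0 of 8 passed in CKD+Fe mice by limma and Slc13a3 had an unadjusted p under 0.05 (log2 0.79, SE 0.21, unadjusted p = 0.00228, adjusted p = 0.4), with 107 ± 27.9 FPKM in CKD+Fe mice. At that unadjusted p 3.28% of all genes were higher and 2.73% lower.

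Among 6 transcription factors listed as regulators of such transporter genes, 1 was lower and 2 were higher in CKD mice, shares near and below the 13.3% and 54.6% of all genes. Hnf4a, which maintains proximal tubule genes, went from 197 ± 16.7 to 70.2 ± 20.5 FPKM (SD, n = 3, log2 -1.52, SE 0.21, limma adjusted p = 9.53e-05), with 1 mouse of each group left out because its value was marked as a failed estimate. Nfe2l2, the oxidative stress factor that binds the antioxidant response element, rose from 38.7 ± 3.48 to 84.2 ± 10.8 FPKM (SD, n = 4, log2 1.10, limma adjusted p = 1.38e-05). Ahr, the aryl hydrocarbon receptor, rose from 1.48 ± 0.138 to 6.47 ± 1.71 FPKM (SD, n = 4, log2 1.56, limma adjusted p = 5.46e-06).

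The other 3 did not pass. The transcriptional repressor Bcl6 differed by -0.14 (limma adjusted p = 0.686), Hnf4g by 0.20 (adjusted p = 0.653) and Ppara by 0.05 (adjusted p = 0.928), and Hnf4g and Ppara turned negative after rescaling. For iron therapy 0 of the 6 passed against CKD mice by limma and 0 had an unadjusted p under 0.05.

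Some mice stood apart from their groups. Control mouse 042301, CKD mouse 110310 and CKD+Fe mouse 042702 had 595, 805 and 442 genes at least 2-fold from the rest of their group, and the other mice had 41 to 225. Mouse 042702 was the lowest of the CKD+Fe mice for all 10 transporters, and mouse 062910 the highest for 7. Mouse 042301 was the lowest control mouse for 7. The relative depth of the libraries, estimated from the steps between low values, ran from 0.693 to 1.0 with the lowest for mouse 062910. The part of depth in these ranks was not tested. All 12 mice had transcripts of 4 Y-linked genes, with Ddx3y at 7.75 FPKM or more.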

How the data were processed

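RNA sequencing of whole kidneys gave 1 library for each of 12 mice, 4 per group. The authors prepared stranded mRNA libraries and sequenced single-end reads of 50 cycles. The submitters' processing notes name bcl2fastq 2.19, STAR 2.5.2, Cufflinks 2.1.1 and GRCm38, without an annotation release or a strand setting. The values the authors deposited are FPKM per gene and mouse. Positions follow the deposited table, with starts converted to count from 1. The 30 values in 17 genes marked as failed were treated as missing. No read counts were used here, so depth is known only as a relative estimate, and total RNA in a kidney was not measured.

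The log2(FPKM + 1) values were fitted in limma 3.58.1 (R 4.3.3) with a variance trend, in 1 fit of all 12 mice. A gene was tested if 4 or more mice had 1 FPKM or more, which left 13148. P values were two-sided, with Benjamini-Hochberg adjustment over all genes and a threshold of 0.05. The study tested counts with DESeq2, which FPKM do not allow. Its adjusted cutoff of 0.5 was an alternative. Fold changes of means are ratios of mean FPKM, while log2 values are differences of mean log2(FPKM + 1) and understate changes of low genes. Exact permutation tests were two-sided over 70 arrangements. The pipeline was tested on simulated data.

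Members and gene lists were chosen with earlier results of these data known. Named are every member, partner and regulator, and of the other transporters the 4 largest rises and falls past the threshold on the log2 scale; 6 more are named after their values were seen. Markers are given by counts and sums. Some listed genes and 1 motif are not reported here. Of further lists, papilla and urothelium (7 genes) had 0 called in any comparison, erythroid genes (4 tested) 1 called, lower, in CKD+Fe against control mice, and adipose genes (3) did not pass the filter. The labels name no batch.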

Additional observations from a re-analysis of the deposited data

Results flagged for a closer look

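In 69 groups of 4 mice, over the members, partners and regulators, 5 values lay far enough from the other mice of the group to pass Dixon's 95% criterion, and chance flags about 1 in 20 groups. Slc22a7 in CKD+Fe mouse 062910 was 12.9 FPKM, with the other mice between 0.315 and 1.10 FPKM. In the same mouse Slco1a1 was 0.298 FPKM, with the others between 0 and 0.0275 FPKM. Slc17a3 in control mouse 042301 was 199 FPKM, with the others between 395 and 428 FPKM. The scaffold gene Slc9a3r1 was 154 FPKM in CKD mouse 110310, against 106 to 110 FPKM in the others, and 105 FPKM in CKD+Fe mouse 122320, against 126 to 128 FPKM.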

How the results depend on the processing

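No paired analysis was possible because the groups share no replicate numbers. The alternatives were a pseudocount of 0.1, no filter, a mean of at least 5 FPKM, median-of-ratios rescaling, quantile normalization, a fit of only the 2 groups compared, array quality weights, no variance trend, an adjusted p under 0.5, each mouse left out, and, chosen after seeing the data, mice 042301, 110310 and 042702 left out together. The member calls in CKD against control mice stayed between 8 and 10 with single mice left out and between 9 and 10 otherwise. These counts include Slco1a1 wherever it reached the filter, although its call is no test. Over all genes the calls there ran from 8075 to 9188 with single mice left out and from 6370 to 11764 otherwise. In CKD+Fe against CKD mice the member calls were 2 with array quality weights, 2 without the 3 mice (9 members tested), 2 at an adjusted p under 0.5, and 0 to 1 with single mice left out, Slc22a8 being called without 042702. The other anion transporters called there were 1, 1 and 2 under the first 3 of these settings, and the partners 1, 1 and 1, namely Slc13a3. Over all genes the count of 1 became 0 with a pseudocount of 0.1, without the filter or with only the 2 groups, 160 with array quality weights, 2 without the trend, 83 without the 3 mice, 164 at an adjusted p under 0.5, and 0 to 13 with single mice left out. In CKD+Fe against control mice quantile normalization left 5572 genes called. Reversals among members were those of Slc2a9 in CKD mice (-0.033 after rescaling, -0.32 after quantile normalization) and in CKD+Fe against control mice (-0.0048 after quantile normalization), and of Slc22a7 in CKD+Fe against CKD mice (-0.39 with every mouse, from -1.14 to 0.28 with single mice left out, the highest without 110310, and 0.67 without the 3 mice). With a pseudocount of 0.1 the fall of Slco1a1 relative to the proximal tubule markers in CKD mice was -6.35. The causes were not tested. Slco1a1 did not reach the filter when a control mouse was left out, nor in the fit of only CKD+Fe and CKD mice, and gives no value there.

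Limits apply to every value. With 4 mice a group the smallest exact p is 0.0286. FPKM are relative to the library, so differences between groups moved with the scaling, and the median gene of CKD against control mice went from 0.50 to 0.01 on the log2 scale with rescaling. Depth was known only relatively, and the values of Slco1a1 in CKD+Fe mice rest on few reads.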
